A study of Mus musculus with 2 samples.

Results

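Distal regions that were much less open in livers lacking *Mettl3* in hepatocytes are described here. A region is a stretch of DNA where reads of ATAC-seq piled up, an assay in which the Tn5 transposase cuts open chromatin and tags it for sequencing. Members were selected on the measured ratio itself, as regions with a centre over 1000 bp from the closest transcription start site (TSS), a length of at least 260 bp, at least 150 reads in both libraries together, and a log2 ratio of at most -1.5 (*Mettl3*-HKO over *Mettl3*-flox/flox, 1 read added to each count, each scaled to its library total). The rule found 1484 members among 24497 distal regions that passed its other filters, or 6.06%, and among 69549 distinct regions in all.

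The study compared C57BL/6 mice at 8 weeks of age on normal chow, either Mettl3 flox/flox, whose *Mettl3* alleles can be cut by Cre, or *Mettl3*-HKO (Mettl3 flox/flox Alb-Cre+/-), in which the albumin promoter drives Cre in hepatocytes. Both groups carry the floxed alleles, and the control group lacks Cre. Liver from 4 mice was pooled into 1 library per group, so there is no replicate error and no test was made, and the ratios compare these libraries rather than the genotypes. The library totals were 52826202 reads for *Mettl3*-flox/flox and 58038305 for *Mettl3*-HKO, and intervals given below are at 95%. Those of ratios cover counting error only, and the Wilson intervals of shares treat regions as independent, which neighbouring regions are not. Since liver is bulk tissue, fewer cells of a type and less accessible chromatin per cell cannot be told apart.

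Distal open regions are often enhancers, stretches bound by transcription factors that act on promoters along the same chromosome. In hepatocytes, factors such as FOXA and HNF4A hold such regions open, and nuclear receptors and clock factors act through them on metabolic genes. The closest gene is only a guide to the target, since an enhancer can skip the gene next to it. METTL3 is the catalytic subunit of the complex that writes N6-methyladenosine on RNA. The promoter region of *Mettl3* held 566 reads in *Mettl3*-flox/flox and 392 in *Mettl3*-HKO, a log2 ratio of -0.66. This does not check the deletion, since by the study's methods the loxP sites flank exons 2 and 3 and this region lies over exon 1.

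The reads of the series were not centred on equal openness. Regions took up 31.7% of the *Mettl3*-flox/flox reads and 22.3% of the *Mettl3*-HKO reads, and the median log2 ratio was -0.38 over all regions and -0.51 over the distal regions passing the filters. A ratio of -1.5 or less therefore starts from a background below 0, and in the opposite direction 701 distal regions (2.86%) had a log2 ratio of at least 1.5. Centred on the median of all regions, the same thresholds gave 460 lower and 1208 higher regions. Scaled to the reads within regions, they gave 300 lower and 1486 higher regions. Without a change of scaling, there were 309 lower and 334 higher regions at a threshold of 2 log2 units, and 2595 lower and 2893 higher regions with no minimum total. Which direction held more regions thus depended on the scaling, the threshold and the minimum total.

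Part of these distal regions lay at a start site of the RefSeq annotation, which lists several starts per gene where the deposited table gives 1. RefSeq promoter windows (GRCm38.p6, from 250 bases before to 50 bases after a start) overlapped 42 of 1440 members on the chromosomes that the RefSeq table covers, or 2.92% (Wilson interval 2.16 to 3.92%). Among other distal regions weighted to the members' total counts, 4.65% overlapped one. The 42 members overlapped, in full or in part, 45 windows of 42 genes, of which 19 were protein-coding. The protein-coding windows with the lowest ratios, *Serpine2* and *Insig2*, and those with the most reads, *Foxp1* and *Akap7*, are shown because they name the start that lay inside a region called distal. Capitals mark GC boxes (GGGCGG) and CCAAT boxes (CCAAT) on either strand, and matches of 1 motif may overlap each other.
Serpine2, chr1:79858616-79858915, minus strand: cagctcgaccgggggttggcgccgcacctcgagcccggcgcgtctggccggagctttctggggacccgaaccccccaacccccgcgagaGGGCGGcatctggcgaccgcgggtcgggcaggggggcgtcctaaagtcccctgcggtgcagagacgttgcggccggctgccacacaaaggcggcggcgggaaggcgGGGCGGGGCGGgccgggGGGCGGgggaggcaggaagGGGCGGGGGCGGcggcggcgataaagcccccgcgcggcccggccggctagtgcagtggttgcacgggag
Insig2, chr1:121332540-121332839, minus strand: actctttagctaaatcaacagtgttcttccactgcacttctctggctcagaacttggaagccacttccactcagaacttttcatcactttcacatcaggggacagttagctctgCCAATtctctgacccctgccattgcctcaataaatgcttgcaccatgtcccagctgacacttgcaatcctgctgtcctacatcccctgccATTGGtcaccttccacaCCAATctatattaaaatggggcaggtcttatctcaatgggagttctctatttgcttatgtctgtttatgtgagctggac
Foxp1, chr6:99520944-99521243, minus strand: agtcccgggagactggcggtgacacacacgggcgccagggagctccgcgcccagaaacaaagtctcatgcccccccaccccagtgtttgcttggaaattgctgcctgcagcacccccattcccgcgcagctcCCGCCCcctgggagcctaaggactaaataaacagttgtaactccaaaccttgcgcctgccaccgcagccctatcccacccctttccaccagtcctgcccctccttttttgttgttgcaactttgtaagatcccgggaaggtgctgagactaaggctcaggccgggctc
Akap7, chr10:25297030-25297329, minus strand: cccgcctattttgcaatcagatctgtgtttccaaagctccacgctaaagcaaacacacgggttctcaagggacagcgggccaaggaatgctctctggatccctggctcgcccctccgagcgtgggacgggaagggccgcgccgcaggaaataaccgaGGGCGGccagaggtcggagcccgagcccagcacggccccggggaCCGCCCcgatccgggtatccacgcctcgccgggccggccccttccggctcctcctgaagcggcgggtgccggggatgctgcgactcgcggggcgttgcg

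The region over the *Serpine2* window, a gene of a secreted inhibitor of serine proteases, had 269 reads in *Mettl3*-flox/flox and 53 in *Mettl3*-HKO, a log2 ratio of -2.46. It lay 38.3 kb from the TSS that the table gives for *Serpine2*, and its window holds 6 GC boxes. *Insig2* encodes an anchor that retains the sterol sensor complex in the endoplasmic reticulum, and liver uses a start of its own for it. The region over the *Insig2* window had 798 and 177 reads (-2.30), and the window holds 3 CCAAT boxes and none of the other letters searched. The region over a start of *Foxp1*, a forkhead transcription factor, went from 1323 to 504 reads (-1.53), and the region over a start of *Akap7*, a kinase anchoring protein, went from 1024 to 387 (-1.54).

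Letter matches in the 45 windows were read on both strands beside the 1311 windows that overlapped other distal regions and all 32851 windows of the table, in that order. GC boxes were in 28.9% of the members' windows, 49.4% of those in other distal regions and 35.7% of all. CCAAT boxes were in 31.1%, 37.6% and 37.4%. The nuclear receptor half-site AGGTCA was in 8.89%, 16.7% and 16.3%, the HNF1 half-site GTTAAT in 8.89%, 7.86% and 7.10%, and the TATA box TATAAA in 8.89%, 9.46% and 13.6%. The E-box CACGTG was in 4.44%, 9.61% and 7.15%, the D-box TTATGTAA in 2.22%, 1.30% and 0.938%, and the FOXA letters TGTTTAC in 0%, 6.41% and 3.65%. With 45 windows, none of these shares rests on more than 14 windows. The sequence of the other members is not printed, since no genome was used here.

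The members' reads fell from a median of 252.5 in *Mettl3*-flox/flox to 79 in *Mettl3*-HKO. These are the values that chose them. The median fold enrichment over the genome was 25.8 and 7.35. Together the members took 510188 reads of *Mettl3*-flox/flox, 0.966% of that library, and 161622 reads of *Mettl3*-HKO, 0.278%. Other distal regions of the same total count had medians of 176 and 154 reads. The log2 ratio of the members ranged from -7.43 to -1.5 with a median of -1.72, and most lay close to the threshold, with quartiles at -1.94 and -1.60. A log2 ratio of at most -2 was held by 309 members, 1.26% of the distal regions, and at most -3 by 17. Counting error alone was wide, with a median width of 0.76 log2 units, and the interval lay wholly at or below -1.5 for 513 members (34.6%).

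**Figure D1:**
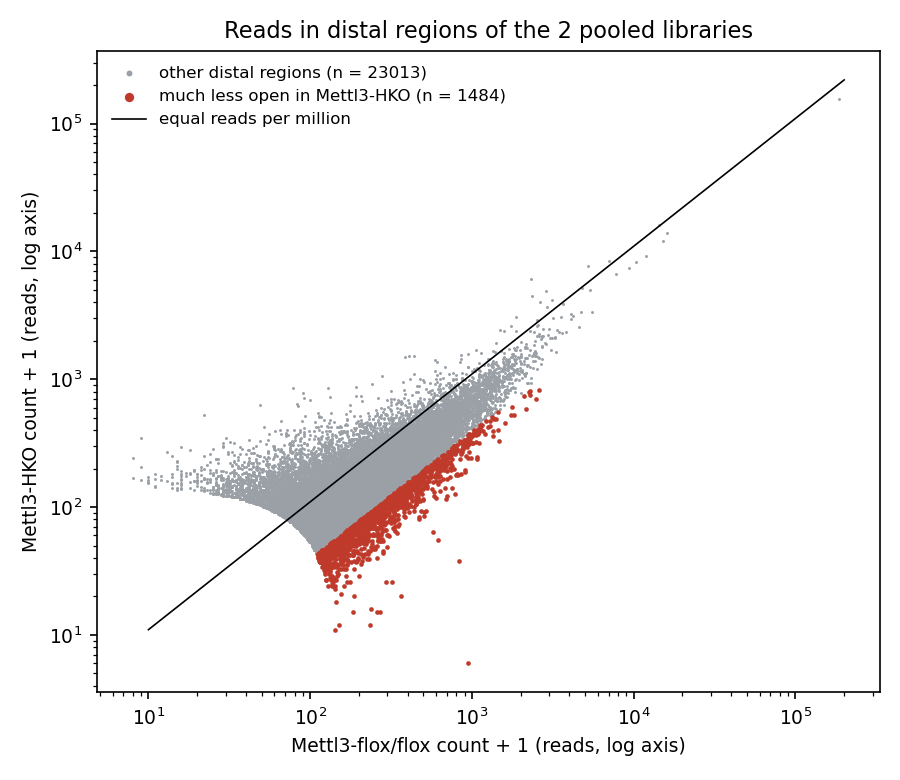
Reads in each of the 24497 distal regions that passed the filters, in the *Mettl3*-flox/flox library (x axis, count plus 1, log axis) and the *Mettl3*-HKO library (y axis, count plus 1, log axis), with the 1484 members in red and the others in grey. The black line marks equal shares of the library totals, and the members form the lower edge of 1 continuous cloud apart from a few regions far below it.

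The values on either side of the threshold were nearly the same. Just inside lay a region in intron 1 of *Asb8* with 514 and 199 reads, and a region 5.60 kb from the TSS of *Stau1* with 527 and 204 reads. Just outside lay a region 24.2 kb from the TSS of *Idh1* with 331 and 128 reads, and a region in exon 15 of *Arid2* with 776 and 301 reads. All of these had a log2 ratio of -1.5 after rounding.

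The peak calls of the authors come from the same reads as the ratio that chose the members, so they only describe it further. Every member carried a peak in *Mettl3*-flox/flox, and 1022 (68.9%) also carried one in *Mettl3*-HKO, against 96.7% of other distal regions of the same signal. Among the 17 members with a log2 ratio of at most -3, 3 had a *Mettl3*-HKO peak, and the median fold enrichment there was 1.66. Among the 292 members from -3 to -2 the share was 49%, and among the 1175 closest to the threshold it was 74.6%. Most members thus stayed above the caller's limit in both libraries.

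The lowest ratio belonged to a region at chr1:39775669-39775935, 29.5 kb from the TSS of *Gm3646*, with 941 reads in *Mettl3*-flox/flox and 5 in *Mettl3*-HKO. Its log2 ratio was -7.43 (interval -9.32 to -6.46). It stood apart from the next, at chr17:4626121-4626674, which had 836 and 37 reads (-4.60, interval -5.15 to -4.16) and kept a *Mettl3*-HKO peak. The others of the 10 lowest had no *Mettl3*-HKO peak, with 142 to 361 reads in *Mettl3*-flox/flox and 10 to 19 in *Mettl3*-HKO. Intron 12 of *Sos2*, which encodes a Ras activator, held one with 232 and 11 reads (-4.41). Intron 1 of *Plekha2*, encoding a lipid-binding adaptor, held one with 271 and 14 reads (-4.32). A region 45.4 kb from the TSS of *Cyp2c29*, a cytochrome P450 of drug metabolism, went from 361 to 19 reads (-4.31, interval -5.13 to -3.72). Intron 2 of *Ell*, encoding an elongation factor of RNA polymerase II, held one with 256 and 14 reads (-4.23). The remaining 4 had log2 ratios from -4.02 to -3.76. One of them lay 139 kb from the closest TSS of the table and 927 kb from the nearest RefSeq coding gene, *Bcl11a*, another lay 15.7 kb from *Slc43a3*, and another lay in intron 15 of *Ptprm*.

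The 10 members with the most reads had log2 ratios from -2.01 to -1.64, around the members' median, and kept a peak in both libraries. The strongest, at chr11:26209602-26211073, had 2597 reads in *Mettl3*-flox/flox and 824 in *Mettl3*-HKO (-1.79, interval -1.91 to -1.68). *Fancl*, of the Fanconi anaemia DNA repair pathway, is the nearest RefSeq coding gene at 177 kb, and the region overlaps a start of the noncoding *5730522E02Rik*. The next lay 22.2 kb from *Lekr1*, with 2488 and 694 reads (-1.98). Intron 1 of *Efna5*, encoding an ephrin ligand, held a region with 2150 and 587 reads (-2.01). The last intron of *Pon1*, which encodes the paraoxonase that liver secretes onto high-density lipoprotein, held one with 2097 and 738 reads (-1.64). Others of the 10 with the most reads lay within *Pde7b*, in intron 2 of *Cerkl*, in intron 15 of *Ptprm*, 1.31 kb from *Pcdh20* and 60.3 kb from *Ccn2*, with log2 ratios between -1.87 and -1.64. The last, with 1813 and 528 reads (-1.91), lay 277 kb from its nearest RefSeq coding gene, *Maf*.

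Distances to genes were close to those of other distal regions of the same signal. The median distance to the closest TSS was 14518 bp for members and 14387 bp for the others, and the longest was 587122 bp. A TSS lay within 10 kb of 575 members, or 38.7% (Wilson interval 36.3 to 41.3%), and of 38.5% of the others. Within 2 kb the shares were 8.15% and 7.15%, and within 20 kb they were 58.8% and 60.4%. Farther out the members were fewer by a small margin, with 82.3% (80.3 to 84.2%) within 50 kb against 84.7%. The members lay upstream of the closest TSS in 45.4% of cases and the others in 44.9%.

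**Figure D2:**
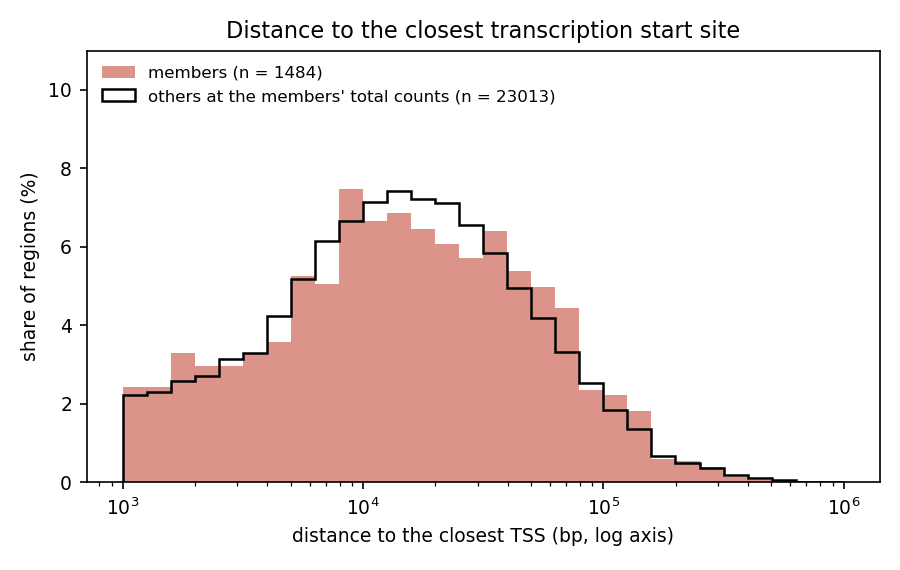
Share of regions (y axis, percent) by distance to the closest TSS (x axis, bp, log axis), for the 1484 members (red bars) and for 23013 other distal regions weighted to the members' total counts (black outline). The outlines largely overlap, and the medians were 14518 and 14387 bp.

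Position within genes also differed little. The centre lay in an intron for 43.9% of members (41.4 to 46.5%) against 47.2% of the others, in an exon or UTR for 6.00% against 4.98%, and outside genes for 50.1% (47.5 to 52.6%) against 47.8%. By RefSeq, 165 members (11.1%) lay over 100 kb from any protein-coding gene, against 8.71% of the others. Length did not differ much either, with a median of 532.5 bp against 525 bp. Members made up from 4.57% of the distal regions of chromosome 14 to 8.39% on chromosome 11 and 8.86% on the X chromosome, where 41 of 463 were members, and 4 of 27 on the Y chromosome.

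The members lay close to each other. Another member had its centre within 50 kb for 549 members, or 37.0% (34.6 to 39.5%), and a member lay that close to 12.8% of other distal regions of the same signal. The number of distal regions around them was alike, with a mean of 3.17 within 50 kb of a member and 3.32 of another region. Regions less than 2 kb from a member were members in 136 of 404 pairs (33.7%), and less than 2 kb from another region in 4.55%. This share declined with distance up to 100 kb, to 18.2% at 5 to 10 kb and 9.88% at 50 to 100 kb. Beyond 100 kb it lay between 7.07% and 7.91%, while around other regions it stayed between 4.55% and 5.94% at all distances.

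Neighbours that were not members also had lower ratios near a member. Their median log2 ratio was -1.08 within 2 kb of a member, over 268 pairs, and -0.73 at 25 to 50 kb, against -0.50 and -0.47 around other regions. Beyond 100 kb it was between -0.52 and -0.51 around members. These neighbours come from the same pair of libraries as the selection, so they describe how the difference was spread along the chromosome and are no independent support. Pairs of abutting regions can be pieces of 1 element, and 54 of 319 gaps between neighbouring members were under 1 kb. Counting only neighbours with a gap of at least 1 kb, 32.7% of members and 12.3% of the others had a member within 50 kb.

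**Figure D3:**
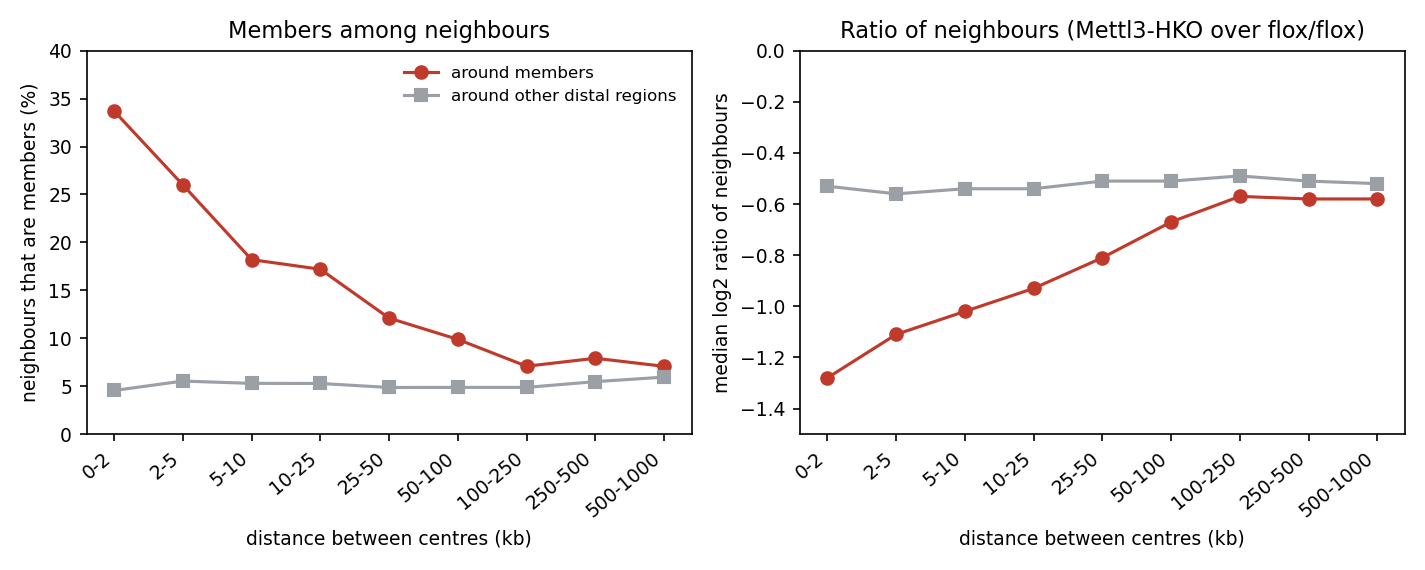
Left, share of neighbouring distal regions that were members (y axis, percent), and right, median log2 ratio of all neighbours, members included (y axis), by distance between centres (x axis, kb), around the 1484 members (red) and around other distal regions (grey). Around members the share falls from 33.7% within 2 kb to 9.88% at 50 to 100 kb and lies between 7.07% and 7.91% beyond. Around others it stays between 4.55% and 5.94%.

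Chained over steps of at most 50 kb, the members formed 935 single regions, 167 pairs, 43 runs of 3, 16 of 4, 2 of 5 and 2 of 6. Each run was bounded by its first and last member, so the share of members within a run is high by construction. The run with 6 members of 8 distal regions, at chr8:124264504-124345489, spans *Galnt2*, which encodes an enzyme that starts O-linked glycosylation of proteins. In its intron 1 the members had 378, 314 and 204 reads in *Mettl3*-flox/flox and 96, 105 and 42 in *Mettl3*-HKO. The lowest ratios lay at the other end, over its 3′ UTR, with 225 and 38 reads (-2.67) and with 470 and 82 reads (-2.64). The 2 regions of the run that missed the threshold were its strongest, with 830 and 429 reads (-1.09) and 1483 and 718 reads (-1.18).

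A run at chr10:80933549-80988543 held 6 members of 11 distal regions between *Gadd45b*, a stress-induced gene, and intron 2 of *Gng7*, which encodes a G protein subunit. Its lowest member, in *Gng7*, had 700 and 121 reads (-2.66), and the member next to it had 671 and 194 (-1.92). Nearest to *Gadd45b*, 3651 bp from its TSS, a member had 203 and 59 reads (-1.90). The 5 regions in between that missed the threshold had log2 ratios from -1.37 to -0.86, so every region of the run was lower.

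The run at chr11:90355173-90390032 lay in *Hlf*, a clock-output transcription factor that binds D-boxes, and held 5 members of 7 distal regions. The members had 757, 257, 456, 287 and 179 reads in *Mettl3*-flox/flox and 276, 66, 108, 100 and 49 in *Mettl3*-HKO, in the order of their positions. The lowest, in intron 2 at 8.46 kb from the TSS, had a log2 ratio of -2.20. The promoter of *Hlf* had 330 and 174 reads (-1.06), and the 2 regions of the run that missed the threshold had log2 ratios of -1.07 and -0.42.

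At chr8:35405709-35418206, all 5 distal regions of the run were members. The nearest RefSeq coding gene was *Ppp1r3b*, 18.1 to 29.9 kb away, which encodes the subunit that directs protein phosphatase 1 to glycogen in liver, while the closest TSS of the table was that of the unnamed ENSMUSG00000110384. By nearest RefSeq coding gene, *Ppp1r3b* had 5 members of 13 distal regions. The strongest of the run had 1591 and 451 reads (-1.95), and the lowest had 318 and 25 reads (-3.75, interval -4.45 to -3.22). A further run of 4 of 4 regions lay in introns 11 to 14 of *Dock8*, a guanine nucleotide exchange factor, with 168, 183, 190 and 245 reads against 34, 41, 36 and 88. Of all distal regions with *Dock8* as nearest RefSeq coding gene, 4 of 5 were members.

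**Figure D4:**
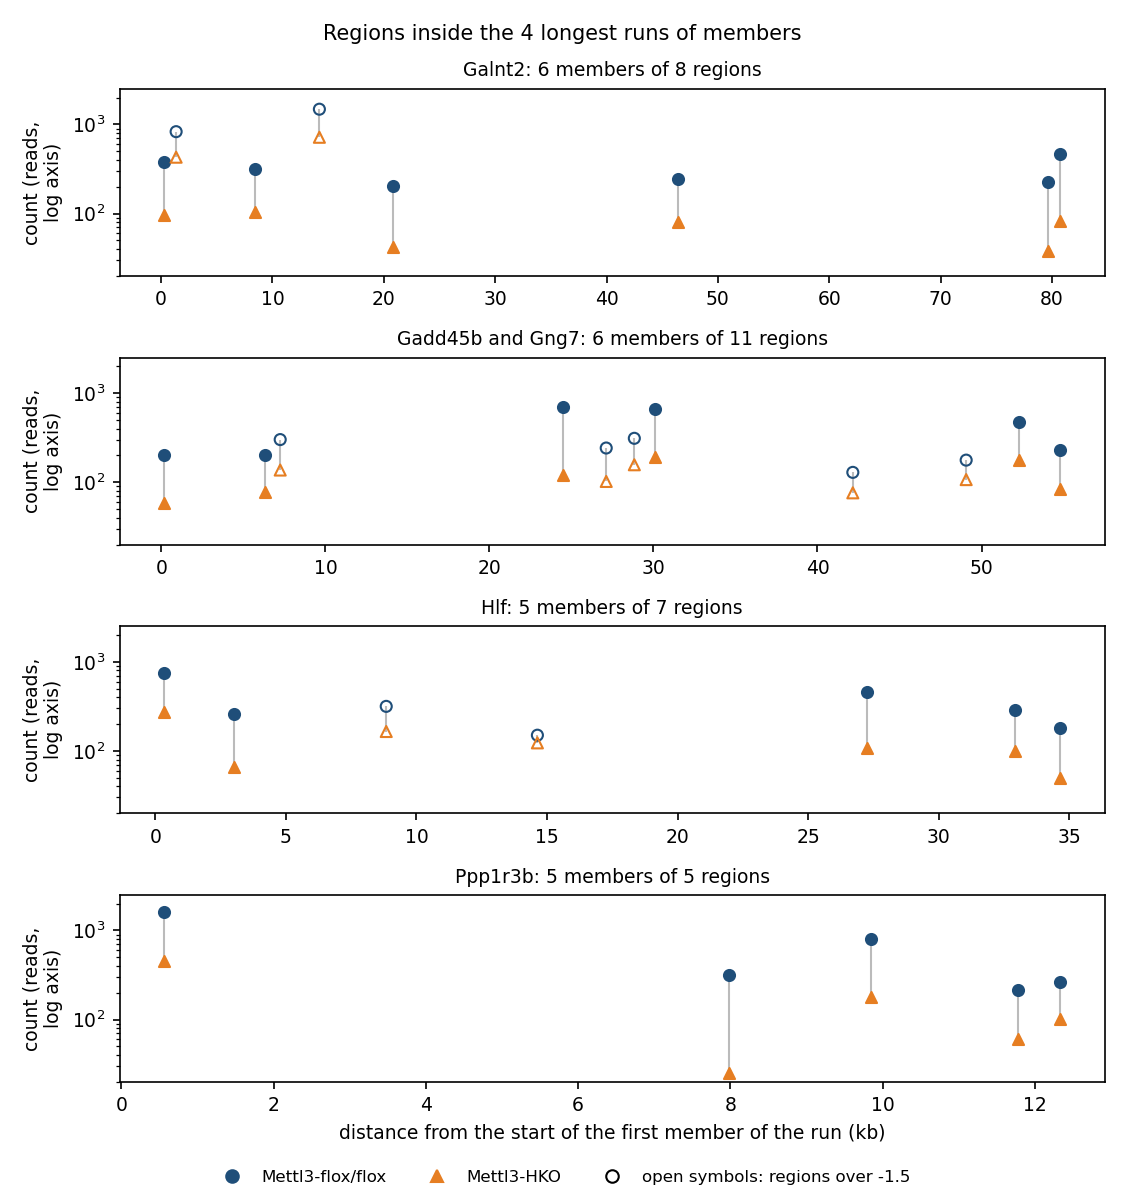
Reads per distal region (y axis, log axis) along the 4 longest runs of members, by distance from the start of the first member (x axis, kb), in *Mettl3*-flox/flox (blue circles) and *Mettl3*-HKO (orange triangles), with members filled and regions over the threshold open. The *Mettl3*-HKO count is below the *Mettl3*-flox/flox count in every region, and in *Galnt2* the strongest regions are open symbols.

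The 1484 members had 1239 closest genes, of which 608 had a symbol in the table. Of these genes, 192 had at least 2 members, 41 had at least 3, and 8 of the 41 had no other distal region passing the filters. The 9 genes with at least 4 members are described next, with *Hlf* given above, and with them 6 of the 32 genes with 3 members, taken in order of fewest other distal regions, so that all 3 of their regions were members. *Slc27a2*, which encodes a transporter and activator of fatty acids, had 4 members among 5 distal regions, all upstream of its TSS within 17.8 kb. The strongest, 2.57 kb from the TSS, had 738 and 194 reads (-2.06), and the promoter of *Slc27a2* had 1333 and 526 (-1.48). *Gpd1l*, which encodes a glycerol-3-phosphate dehydrogenase-like enzyme, had 3 of 3 in its intron 1, and the strongest had 471 and 140 reads (-1.88). *Fgf1*, a fibroblast growth factor, had 4 of 10 in its intron 1, from 496 and 114 reads (-2.25) to 535 and 201 (-1.54), and its promoter had 243 and 193 (-0.47).

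Among the others, *Arhgap24*, which encodes an inactivator of Rac-type GTPases, had 5 of 5, spread over 132 kb downstream of its TSS. The lowest, 2.29 kb from the TSS, had 349 and 70 reads (-2.44), and its promoter had 238 and 100 (-1.38). *Cdh10*, a cadherin, had 4 of 6, all within 7.53 kb of each other and 127 to 134 kb from the TSS, from 256 and 49 reads (-2.5) to 230 and 71 (-1.82). *Rbfox1*, a splicing regulator, had 3 of 3, the strongest with 672 and 222 reads (-1.73), and *Tmprss15*, encoding enteropeptidase, had 3 of 3, the strongest with 923 and 323 (-1.65). *Gorasp2*, encoding a Golgi stacking protein, had 3 of 3, with 483 and 173 reads (-1.61) in the strongest. *Tsc22d3*, the glucocorticoid-induced leucine zipper gene, had 4 of 12, with log2 ratios from -1.78 to -1.56.

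The remaining 5 carry Ensembl identifiers without a symbol and lie in or near named genes. These are the runs beside *Ppp1r3b* and in *Dock8*, 4 of 18 regions closest to ENSMUSG00000076946, whose members have as nearest RefSeq coding gene *Pde4d*, a cyclic AMP phosphodiesterase gene with 4 members of 32 by that assignment, and 3 of 3 each in *Fhit* and *Cux2*. In intron 1 of *Fhit* the strongest had 1353 and 360 reads (-2.04). In intron 2 of *Cux2*, a repressor with higher expression in female liver, the members had 298 and 48 reads (-2.75), 442 and 113 (-2.09), and 254 and 81 (-1.77). By nearest RefSeq coding gene, an assignment chosen after the values were seen, *Arhgap24* had 7 members of 9 regions, *Galnt2* 6 of 11, and *Ppargc1a*, the coactivator of mitochondrial and gluconeogenic genes, 6 of 21. Of the latter, 3 lay inside the RefSeq gene, the one with the most reads having 1452 and 403 (-1.98), while 1 lay 8.09 kb away and 2 lay 413 and 414 kb away. By the same assignment *Slc27a2* had 4 members of 8 regions. The 4 members closest to *Fgf1* were assigned to *Arhgap26*, which had 5 of 34.

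Promoters of the members' closest genes were lower as well, in the same libraries. A promoter region (centre within 1000 bp of the TSS) was measured for 511 of the 1239 genes, with a median log2 ratio of -0.92, and for 4393 genes closest only to other distal regions, with a median of -0.56. A log2 ratio of at most -1.5 was found for 63 (12.3%) of the former and 118 (2.69%) of the latter. The background was 396 of 13163 genes with a promoter region, or 3.01%.

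Lists of liver pathways put 31 members next to 436 distal regions of their genes, or 7.11%, close to the background of 6.06%. Lists of hepatocyte transcription factors and nuclear receptors had 8 members of 68 regions (11.8%) with a median log2 ratio of -0.68 over the 68. The largest of these, in the last exon of *Foxa1*, a pioneer factor of liver enhancers, had 1075 reads in *Mettl3*-flox/flox and 235 in *Mettl3*-HKO (-2.32, interval -2.54 to -2.12). A region 45.3 kb from *Onecut1*, the gene of the liver factor HNF6, had 171 and 37 reads (-2.31), while the 3 distal regions closer to it were higher in *Mettl3*-HKO, with log2 ratios of 0.25, 0.58 and 1.11. That member began a run of 4 members of 9 distal regions between *Onecut1* and *Fam214a*, all of them lower in *Mettl3*-HKO. The next member of this run, also with *Onecut1* as nearest RefSeq coding gene, had 264 and 83 reads (-1.79). The other 6 of the 8 members of these lists lay near *Foxa2*, which had 2, and near *Hnf4a*, *Nr2f2*, *Nr5a2* and *Rxra*. They had log2 ratios from -1.58 to -1.51, within counting error of the threshold.

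Circadian clock genes had 6 of 44 (13.6%), of which 5 were the *Hlf* regions. The sixth, 1.35 kb from the TSS of *Npas2*, a partner of BMAL1, had 344 and 124 reads (-1.60). In intron 2 of *Rora*, a nuclear receptor that activates *Arntl*, a member closest to another TSS had 218 and 67 reads (-1.82).

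Genes of lipogenesis and cholesterol synthesis had 5 members of 44 (11.4%), of which 4 are named here. The region 9.04 kb from *Insig1*, the sterol-induced partner of *Insig2*, fell from 691 to 114 reads (-2.72, interval -3.03 to -2.45) and had no *Mettl3*-HKO peak. *Srebf1*, the master regulator of lipogenesis, had a member 4.30 kb away with 257 and 64 reads (-2.12). *Srebf2*, which drives cholesterol synthesis, had one in intron 1 with 140 and 53 reads (-1.52). *Acly*, which makes cytosolic acetyl-CoA, had one in intron 8 with 229 and 83 reads (-1.59).

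Fatty acid oxidation genes had 4 of 48 (8.33%), of which 3 are named here. They lay near *Plin2*, a lipid droplet coat protein, with 196 and 58 reads (-1.88), *Cyp4a14*, a fatty acid hydroxylase, with 193 and 61 (-1.78), and *Vnn1*, a pantetheinase, with 291 and 94 (-1.76).

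Glucose handling genes had 3 of 41 (7.32%), near the 6.06% of all distal regions passing the filters. The 3 lay at 2 genes, both encoding enzymes of gluconeogenesis. *Pck1*, encoding the cytosolic phosphoenolpyruvate carboxykinase, had 2, with 708 and 254 reads (-1.61) at 9.06 kb and 382 and 118 (-1.82) at 8.63 kb on the other side. *G6pc*, encoding glucose-6-phosphatase, had 1 at 11.5 kb with 1354 and 493 reads (-1.59). A member in the last intron of *Irs1*, an adaptor of the insulin receptor, had 301 and 115 reads (-1.52).

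The other lists held few members. Xenobiotic metabolism had 3 of 22 (13.6%), the *Cyp2c29* region above, one 1.70 kb from *Cyp1a1* with 164 and 56 reads (-1.67) and one 4.24 kb from *Cyp2b10* with 219 and 79 (-1.60). Bile acid genes had 1 of 34 (2.94%), 2.82 kb from *Cyp8b1*, the sterol 12-hydroxylase, with 631 and 207 reads (-1.74), and a member lay in intron 10 of the transporter *Slco1a1* with 197 and 59 reads (-1.86). Plasma protein genes had 1 of 70 (1.43%), 1.37 kb from *Fetub*, with 179 and 58 reads (-1.74). Growth hormone and STAT5 genes had 0 of 30 by closest gene, with the 3 *Cux2* members counted only by overlap. Wnt and zonation genes had 0 of 11, and AP-1 and immediate early genes 0 of 24, with a median log2 ratio of -0.29.

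**Figure D5:**
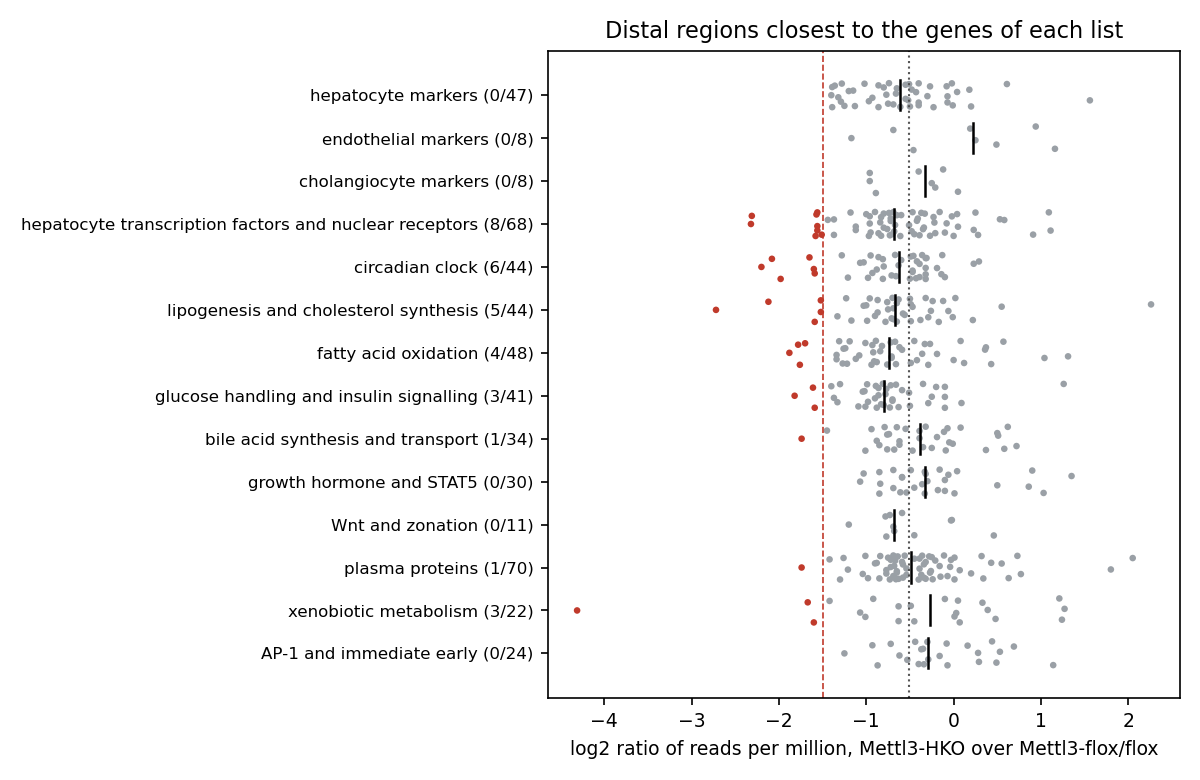
Log2 ratio (x axis, *Mettl3*-HKO over *Mettl3*-flox/flox) of each distal region closest to a gene of a list (rows, with members over regions passing the filters), for lists with at least 8 regions. Red points are members at or below the dashed line at -1.5, black bars are list medians, and the dotted line is the median of all distal regions passing the filters (-0.51). The region farthest left is the one near *Cyp2c29* at -4.31.

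Markers of liver cell types had no member among 66 distal regions, beside 6.06% of all distal regions passing the filters. Of the 66, macrophage markers had 2, lymphocyte markers 1 and stellate cell markers 0, so the count says little on these types. The distal regions of hepatocyte markers such as *Alb* numbered 47, with a median log2 ratio of -0.61 and no value under -1.40. The 8 distal regions of endothelial markers had a median of 0.22 and went both ways, from -1.17 at *Stab2* to 1.16 at *Pecam1*. The promoters of 8 hepatocyte markers had 4152 reads in *Mettl3*-flox/flox and 2805 in *Mettl3*-HKO in sum, with a median log2 ratio of -0.65, close to the median of -0.57 over all genes with a promoter region, and single values from -1.57 to 0.02. The promoters of 7 of 8 endothelial markers had 153 and 400 reads in sum with a median of 1.60, none below 0, and those of 2 of 8 macrophage markers had 53 and 112. Stellate cell markers had 798 and 313 reads in sum over 3 promoters, with a median of 0.08 and a lowest value of -2.51. Cholangiocyte markers had 831 and 698 over 5 with a median of -0.19, and no lymphocyte marker had a promoter region. Endothelial marker promoters were thus higher in *Mettl3*-HKO, their distal regions mixed and the median of hepatocyte promoters near the background, and the part of cell composition in the members' ratios was not tested.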

How the data were processed

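ATAC-seq of mouse liver was analysed for 1 *Mettl3*-flox/flox and 1 *Mettl3*-HKO library, grouped by their labels. The authors trimmed adaptors, aligned reads with BWA to GRCm38, kept properly paired, non-mitochondrial reads, and ran MACS2 on each library without removing duplicates. The counting of reads on merged regions and any shift of read ends for Tn5 are not given in the sources used here. The authors deposited, per region, raw counts, RPM values (count plus 1, scaled by the library total), a fold enrichment (ratio of read density in the region to that in the genome), and the log2 ratio of the RPM values. The latter was not used, and log2 ratios were computed anew after adding 1 to each count, with library totals recovered from the RPM values.

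Of 74821 rows, 69549 were distinct regions. Starts were converted to count from 1. Other distal regions were weighted to the members over 20 groups of total count. Runs joined members with centres at most 50 kb apart. Symbols came from the table, and promoter sequences and nearest coding genes from RefSeq. With 1 library per group no test was made. Shares have Wilson intervals and ratios Clopper-Pearson intervals at 95%. Duplicate reads, if they were counted, make the intervals of ratios too narrow, and the closeness of regions makes those of shares too narrow. Named were the 10 lowest ratios, the 10 with the most *Mettl3*-flox/flox reads, the 15 closest genes with the most members (ties by fewest other distal regions), the longest runs, regions at the threshold and members at genes of the lists. The members and lists were chosen with earlier results of these data known, and the motifs, RefSeq genes and sets named as such after the values were seen. Alternatives to scaling, added count, thresholds, matching and windows were run. Regions at a few genes are not reported here. Scripts were tested on simulated counts. Analyses were run in Python 3.11.15 with scipy 1.17.1, pandas 2.3.3, numpy 2.4.6 and, for plots, matplotlib 3.10.9.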

Additional observations from a re-analysis of the deposited data

How the results depend on the processing

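The number of members depended on scaling and thresholds. It was 460 when ratios were centred on the median of all regions, 300 when scaled to the reads in regions, 5258 at a log2 ratio of at most -1, 309 at -2, 2595 with no minimum total and 835 at a total of at least 300. Both scalings shift all ratios alike, taking the median of all regions from -0.38 to 0.00 and 0.13, and the other changes follow from the rule's own limits. Adding 0.5 or 10 reads, no minimum length, 400 bp, a distance over 5 kb and every listed gene gave from 1111 to 1582. The share of members with another member nearby exceeded that of other regions of the same signal in each alternative run. It was 29.2% against 8.25% within 25 kb, 44.1% against 19.5% within 100 kb, 16.2% against 3.11% at -2, 22.2% against 4.32% after centring, 27.4% against 8.90% at a total of 300 and 32.7% against 12.3% with gaps of at least 1 kb, which was chosen after seeing the data. The share with a TSS within 10 kb was 36.9% to 39.3% under other selections of members, against 37.8% to 38.8% of the others. Other matchings change only the latter, to between 38.2% and 40.7% against 38.7% of members. The share was 20.8% against 20.5% at 5 kb and 82.3% against 84.7% at 50 kb. Members at list genes numbered 8 after centring and 7 at -2, and 38 with overlapped genes counted too, chosen after seeing the data. Those 8 were 1.83% of the regions at list genes, against 1.88% of all distal regions. The lists of fatty acid oxidation, glucose handling, bile acids and plasma proteins each kept 0 members after centring and 0 at -2. No paired analysis was possible because each group has 1 library, and no library could be left out for the same reason.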

Other observations

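The following genes were chosen after their values were seen, and their regions belong to the same selection. In methyl donor metabolism, *Gnmt*, which encodes the glycine methyltransferase that uses S-adenosylmethionine, had 3 members of 5 distal regions. The strongest, over its 3′ UTR, had 1226 reads in *Mettl3*-flox/flox and 469 in *Mettl3*-HKO (-1.52), and the others, which lie in intron 11 of *Pex6* and over the 3′ UTR of *Cnpy3*, had 300 and 59 (-2.46) and 381 and 101 (-2.04). *Mat1a*, encoding the liver enzyme that makes S-adenosylmethionine, had 1 of 6 with 116 and 44 reads (-1.51), which has *Dydc1* as its nearest RefSeq coding gene, and *Pemt*, a phosphatidylethanolamine methyltransferase, had 1 of 3 with 246 and 92 (-1.54). *Ahcy* had 0 of 6 and *Bhmt* 0 of 4.

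The metallothionein genes *Mt1* and *Mt2*, which respond to metals and glucocorticoids, each had a member within 2 kb. The one near *Mt1* had 472 and 79 reads (-2.70, interval -3.08 to -2.37), and the one near *Mt2* had 946 and 240 (-2.11, interval -2.32 to -1.91). Of other glucocorticoid-responsive genes, *Tsc22d3* had the 4 of 12 given above, *Fkbp5* had 0 of 8, *Tat* 0 of 6, *Sgk1* 0 of 3 and *Per1* 0 of 2. In intron 3 of *Scap*, which encodes the escort of the SREBP proteins, 1 of 4 distal regions was a member, with 200 and 28 reads (-2.93, interval -3.60 to -2.40), and the others had log2 ratios from -1.21 to -0.81. The single distal region of *Mbtps2*, which encodes a protease that releases these proteins, was higher in *Mettl3*-HKO, with 45 and 143 reads (1.51).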
